A study of Drosophila melanogaster with 2 samples.

Results

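Chromatin immunoprecipitation with sequencing (ChIP-seq) located where a GFP-tagged form of CG7745 was found on the genome of whole *Drosophila melanogaster* embryos, and 330 of the 1874 peaks in the reproducible set had their summit in intergenic sequence. The reproducible set is the authors' IDR list, in which IDR stands for the irreproducible discovery rate, a ranking method that keeps peaks called alike in replicate libraries. A peak counted as intergenic when its summit lay more than 500 bp from every protein-coding transcription start site (TSS) and outside every annotated transcript, coding or noncoding. All embryos were 0 to 12 h old and came from 1 transgenic line in which GFP is fused to the C-terminus of CG7745. The 2 libraries are biological replicates 2 and 3 from separate biosamples. The description names an antibody against GFP, the antibody field names CG7745, and no group without the tag was used here. Because chromatin came from whole embryos over this age range, a peak in a few cells and a weak peak in many cannot be told apart.

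CG7745 is listed as an uncharacterized protein in the RefSeq annotation, so the labels and reference give no role to set beside its peaks. Intergenic sequence in flies holds many of the enhancers that switch developmental genes on in patterns, bound by homeodomain, GATA, forkhead and other sequence-specific factors. It also holds start sites of long noncoding RNAs and of tRNA genes, which RNA polymerase III transcribes. Regions that many unrelated factors occupy are common in fly embryo ChIP data, and enhancers of patterning genes are often among them.

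The intergenic class made up 17.6% of the IDR set (exact Clopper-Pearson 95% interval 15.9 to 19.4% over peaks). The same rule is met by 37268776 of 133880608 bases of the main chromosome arms, or 27.8%. The other large classes were promoters, with 733 summits within 500 bp of a protein-coding TSS, and introns, with 713. The 330 summits lay on 326 distinct intervals, since 8 of them shared an interval with another member, and their nearest protein-coding TSS belonged to 237 genes, 59 of which had at least 2 members.

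Sequences of the summit base and 50 bp on either side were read from the RefSeq copy of Release 6 of the genome (dm6), plus strand, 5′ to 3′. The first set shows summits that hold more than 1 match to TAATTA, a core of homeodomain sites, or to its variant AATTAG, read on either strand and printed in capitals. They lie on chr2L:8888360-8888460, upstream of CG42713, on chrX:15653553-15653653, upstream of CG8119, and on chr3R:13929708-13929808, downstream of the Art9 start. The number after each gene is the distance in bp of the summit from that gene's TSS, negative when upstream.
CG42713 -3030: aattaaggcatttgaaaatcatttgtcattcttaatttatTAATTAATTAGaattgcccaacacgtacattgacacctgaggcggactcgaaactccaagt
CG8119 -8982: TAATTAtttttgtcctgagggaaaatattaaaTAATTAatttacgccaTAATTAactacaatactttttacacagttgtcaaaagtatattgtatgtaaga
Art9 13702: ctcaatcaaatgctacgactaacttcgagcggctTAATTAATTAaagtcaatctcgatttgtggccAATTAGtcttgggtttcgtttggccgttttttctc

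The second set shows windows with the GATA-type words CTTATC and TGATAA in capitals, which appear as GATAAG and TTATCA on the opposite strand, so that a run of 7 capitals is an overlap of both. They lie on chr3L:16732586-16732686, upstream of CG9701 and also with TAATTA in capitals, and on chr2L:14556969-14557069, near CG3473.
CG9701 -910: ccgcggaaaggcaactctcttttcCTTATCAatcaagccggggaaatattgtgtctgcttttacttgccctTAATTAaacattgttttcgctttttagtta
CG3473 6707: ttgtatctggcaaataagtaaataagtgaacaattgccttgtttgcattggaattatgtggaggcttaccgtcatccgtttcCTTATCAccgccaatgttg

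The third set shows strong summits without any of these 4 words, printed with no capitals. The 4 strongest members, which are not printed, do hold TAATTA. The windows shown lie on chr4:497869-497969 upstream of zfh2, on chr3R:29214396-29214496 upstream of eEF1gamma, and on chr3L:18402048-18402148 upstream of rpr.
zfh2 -3891: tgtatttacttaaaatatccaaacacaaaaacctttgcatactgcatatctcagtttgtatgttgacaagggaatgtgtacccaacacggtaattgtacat
eEF1gamma -5726: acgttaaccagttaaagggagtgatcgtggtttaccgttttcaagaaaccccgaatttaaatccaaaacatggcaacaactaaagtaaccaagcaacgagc
rpr -3663: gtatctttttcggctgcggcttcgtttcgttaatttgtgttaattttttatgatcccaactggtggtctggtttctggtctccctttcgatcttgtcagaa

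The last set shows summits beside tRNA genes, with the bases of the tRNA gene in capitals. They lie on chr3L:8060515-8060615, where tRNA:Leu-CAG-1-3 runs on the minus strand and its start lies 32 bp from the summit, and on chr3R:17618155-17618255, where tRNA:Pro-TGG-1-1 on the minus strand starts 24 bp from it. Of the printed bases, 19 and 27 belong to the tRNA gene.
tRNA:Leu-CAG-1-3: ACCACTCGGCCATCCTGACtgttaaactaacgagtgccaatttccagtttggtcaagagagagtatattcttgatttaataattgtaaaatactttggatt
tRNA:Pro-TGG-1-1: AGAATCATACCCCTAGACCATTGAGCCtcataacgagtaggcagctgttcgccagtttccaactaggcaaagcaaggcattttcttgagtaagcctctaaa

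Signal is the peak caller's own value for a peak against the control, given by the authors on a scale that is not stated, and it is used here to rank peaks. The lowest intergenic member had 121.7, the median was 166.5, the quartiles were 138.7 and 232.6, and the highest member had 3129. The medians of promoter and intron summits were 166.7 and 169.6. Of the members, 220 (66.7%) had a signal under 200 and 42 (12.7%) exceeded 300, against 65.9% and 13.2% of all IDR peaks, and 15 exceeded 500. Of the 100 strongest IDR peaks, 22 were intergenic.

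The strongest member lay 3624 bp upstream of CG42808, with a signal of 3129.5 in the pooled call, 1279.6 in replicate 2 and 1876.5 in replicate 3. It ranked 3 among the nuclear peaks of both replicates. Its summit (dm6, 2R, position 13577881) was 155 bp upstream of the start of lncRNA:CR44366. The next member, 3124 bp downstream of the CG42807 start at position 13569420 of the same arm, reached 1651.9, with 628.5 in replicate 2 and 1041.4 in replicate 3. These 2 peaks stood well above the rest, since the next had 824.7.

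That member lay 596 bp upstream of Tsp47F, a tetraspanin gene, and ranked 29 in replicate 2 and 24 in replicate 3. The member 2651 bp upstream of Fa2h, a fatty acid hydroxylase gene, reached 724.5, with ranks of 34 and 35. The zfh2 member, whose window is printed above, reached 708.5 and was the strongest off chromosome arm 2R. zfh2 encodes a large zinc finger and homeodomain protein, and its member had 233.9 in replicate 2 and 469.0 in replicate 3.

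The member 3778 bp upstream of rib, which encodes a BTB-domain protein needed for tracheal and salivary gland tube formation, reached 701.9, with 285.4 in replicate 2 and 413.5 in replicate 3. The eEF1gamma member reached 662.5 with 242.5 and 420.2, and lay 116 bp upstream of the start of lncRNA:CR31044. Next came members near CG15429 (629.1), CG31668 (614.8), CycB, which encodes the mitotic cyclin B (605.5), CG5953 (599.1) and Psc, which encodes a Polycomb group protein (548.3). The member 3663 bp upstream of rpr, which encodes the cell death activator Reaper, reached 500, with 224.2 in replicate 2 and 286.7 in replicate 3. All 25 strongest members were among the 300 strongest nuclear peaks of both replicates. They were picked by the signal of the pooled call, which used the reads of these same replicates, so this is no independent check.

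Across the class, a summit was matched in a replicate when that replicate's own list had a summit within 100 bp. Replicate 2 matched 321 of the 330 members and replicate 3 matched 325. Both matched 316 members, or 95.8% (93.0 to 97.7%), against a background of 94.1% over all IDR peaks. Promoter summits were matched in both at 93.3% and intron summits at 94.0%, and neither difference passed the test (two-sided Fisher's exact test, odds ratios 1.62 and 1.45, Benjamini-Hochberg adjusted p = 0.426 and 0.732 over the 12 tests of 6 properties against 2 classes).

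Under the stricter requirement that both replicates place the match within their 1874 strongest nuclear peaks, 192 members qualified, or 58.2% (52.7 to 63.6%), against a background of 57.8% over all IDR peaks. The shares at promoters and in introns were 58.9% and 57.1%, with odds ratios of 0.969 and 1.05 that did not pass the test (Fisher's exact test, adjusted p = 0.916 for each). The IDR set itself was derived from these lists, so these shares describe the agreement of lists that already entered the choice of peaks. Both replicates were called against 1 control, whose own data were not used here, so the part of the control in this agreement was not tested.

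The 316 members matched in both replicates had signals with a Spearman correlation of 0.578 and a Pearson correlation of 0.732 on the log2 scale. Those points share a control and a peak caller, and the correlations are descriptions across peaks. The median distance between matched summits of the replicates was 28.5 bp, and in 127 members (40.2%) it was at most 20 bp. Members ranked better in replicate 3 in 190 cases and better in replicate 2 in 124. Their median rank was 1148 in replicate 2 and 924.5 in replicate 3, against 919 and 963 at promoters and 966 and 895.5 in introns. In replicate 2, 23 members ranked beyond 5000, against 1 in replicate 3. The worst ranks in replicates 2 and 3 were 20879 and 5399 for members, 25969 and 29579 at promoters, and 22549 and 21452 in introns. Counts of summits ranked better or beyond 5000 are given for members only.

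**Figure D1:**
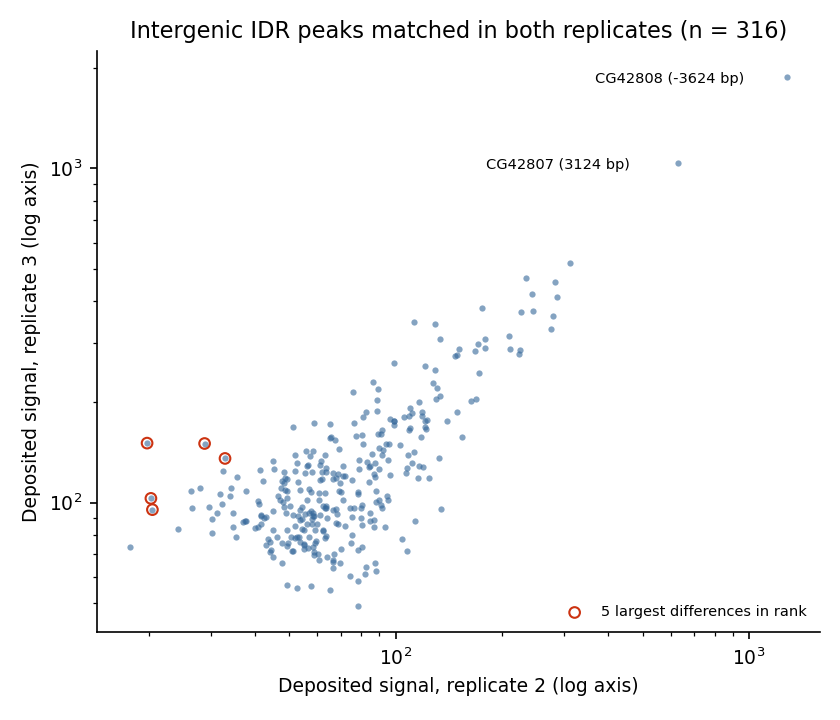
Deposited signal of each intergenic IDR peak in replicate 2 (horizontal, log axis) and replicate 3 (vertical, log axis), for the 316 members matched in both replicates. The members near CG42808 and CG42807 lie apart at the top right, and the 5 circled members with the largest difference in rank are all high in replicate 3 and low in replicate 2.

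The 5 members whose ranks differed most were all stronger in replicate 3. The largest difference was 654 bp upstream of noc, where the signal was 19.8 in replicate 2 (rank 17302) and 150.6 in replicate 3 (rank 427). The others lay near CG13321, Inx7, an innexin gene, en, which encodes the homeodomain protein Engrailed, and CG7320. At the member 13063 bp upstream of en, the signal was 20.5 in replicate 2 and 95.2 in replicate 3. Of the members without a match in one replicate, 9 were missing from replicate 2, among them members 1885 bp upstream of E(spl)m7-HLH and 7335 bp upstream of hid, and 5 were missing from replicate 3, among them the member 39 bp upstream of snRNA:U5:63BC.

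For signal, width and repeat content, no difference between intergenic members and the other classes passed the test. A signal above the IDR median was found in 49.1% of intergenic, 49.5% of promoter and 50.9% of intron summits (odds ratios 0.983 and 0.93, Fisher's exact test, adjusted p = 0.947 and 0.916). The deposited width was exactly 396 bp in 161 members (48.8%) and in 55.0% of all IDR peaks, so width carries little information. A width above the IDR median was found in 6.06% of members, 4.78% of promoter and 3.79% of intron peaks (odds ratios 1.29 and 1.64, Fisher's exact test, adjusted p = 0.746 and 0.426). At least 50% of the summit window was repeat-masked in 9.39% of members, 10.4% of promoter and 9.96% of intron summits (odds ratios 0.896 and 0.938, Fisher's exact test, adjusted p = 0.916 for each). Of all bases that satisfy the rule, 26.5% are repeat-masked, a share of bases that cannot be set beside these shares of windows. No base was masked in 109 of the 330 member windows. Of 366969 windows of that length tiled over all sequence that meets the rule, 132155 had no masked base.

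Clustering was the property that differed. Another IDR summit on a different interval lay within 5 kb of 142 members, or 43.0% (37.6 to 48.6%), and of 241 promoter summits, or 32.9% (29.5 to 36.4%). The odds ratio was 1.54 (adjusted p = 0.0224 by Fisher's exact test, two-sided). Intron summits had such a neighbour in 48.1% of cases, and the odds ratio of 0.815 for intergenic against intron did not pass the test (Fisher's exact test, adjusted p = 0.426). Neighbouring peaks are not independent, which Fisher's exact test does not take into account. The difference from promoters was lost when the limit was 1 kb (odds ratio 1.03, adjusted p = 0.947), among IDR peaks with a signal above the median (1.35, adjusted p = 0.501), with a promoter window of 1000 bp (1.41, adjusted p = 0.181) and when the 1874 strongest peaks of replicate 3 alone replaced the IDR set (1.37, adjusted p = 0.286, all by Fisher's exact test).

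Many members shared a gap between protein-coding genes with others. Of 5659 gaps that contain sequence meeting the rule, 222 held a member. Of these, 159 held 1 member interval, 42 held 2, and 21 held 3 or more, and those 21 gaps contained 84 members (25.5%). Gaps with a member were long, with a median of 17531 bp against 1610 bp over all gaps. In gaps of at least 20 kb lay 172 members (52.1%), against 61.4% of the sequence that meets the rule, so members were no more frequent in these long gaps than their length gives. The number of gaps or of shared gaps that length alone would give was not computed.

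When members at most 20 kb apart were joined, 4 runs held 5 or more members and 49 in all, and 143 members stood alone. Runs are given for members only, so no share for promoter or intron summits stands beside these counts. The longest run, on 2L, spanned 121.1 kb from Cpr35B to CG3473 around noc, which encodes a zinc finger protein of head, tracheal and appendage development. It held 18 of the 19 IDR summits there, with signals between 125.2 and 470.1, and 135 of the 30000 pooled summits. Its strongest members were those near CG3473 (470.1, with 129.3 in replicate 2 and 343.2 in replicate 3) and near CG4218 (436.3, with 133.8 and 309.5). Of these 18 members, 17 were matched in replicate 2 and 18 in replicate 3.

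**Figure D2:**
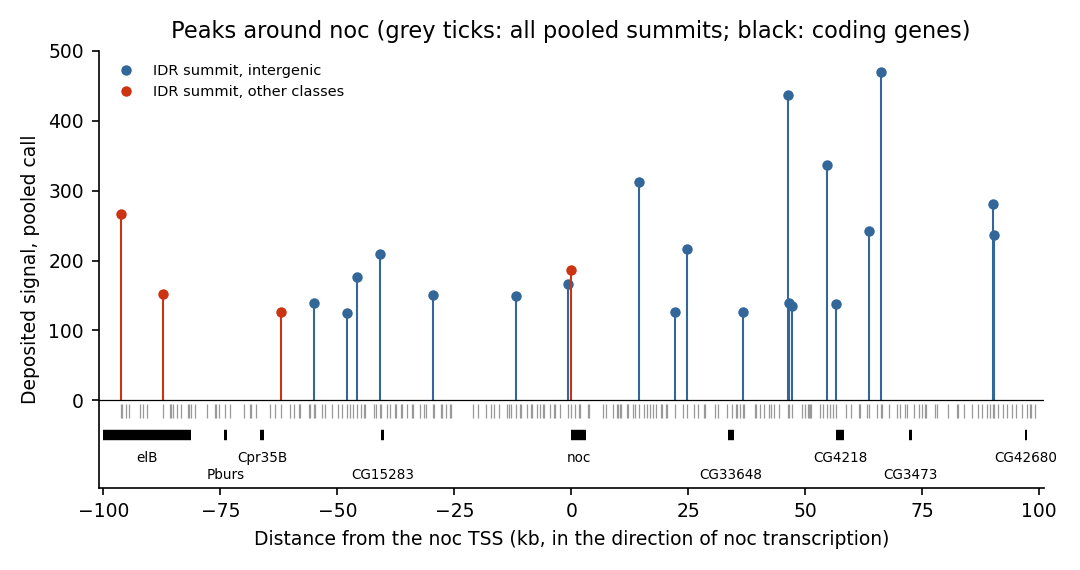
IDR summits within 100 kb of the noc TSS, placed by distance in kb in the direction of noc transcription, with their deposited signal in the pooled call on the vertical axis. Grey ticks mark all pooled summits and black bars protein-coding genes. The intergenic summits (blue) lie on both sides of noc, and the strongest, at 470.1 and 436.3, lie beyond CG33648 on the downstream side.

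The second run, on 3R, held 12 members over 81.26 kb from plh to CG43131. corto, which encodes a chromatin protein that interacts with Polycomb and Trithorax group proteins, lies within it. Signals ran from 135.9 to 461.0, and the member 32883 bp downstream of the corto start, at 381.4, lay 91 bp upstream of lncRNA:CR45588. The third, on 3L, held 10 members over 64.71 kb from hid to CheA75a, with signals from 131.5 to 290.9. The fourth, on 2R, was the shortest at 19.06 kb and the strongest, with 9 members on 7 intervals between 164.6 and 3129.5, and included both strongest members, near CG42808 and CG42807.

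hid, grim, rpr and skl are neighbouring genes on 3L that encode activators of apoptosis, and 1 of these 4 was the nearest protein-coding gene of 7 members. This group was chosen after its values were seen. The share of bases nearest to these 4 genes is not given here, so the count of 7 has no background beside it. The gap between rpr and skl held 4 members, of which 3 were nearest rpr, at 500, 172.1 and 141.0, and 1 was nearest skl, at 129.2. Members nearest hid lay 568 and 7335 bp upstream of its TSS, at 138.7 and 139.9, and the member nearest grim lay 44328 bp upstream, at 142.1. Apart from the members at 500 and 172.1 near rpr, these signals were below the class median of 166.5.

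Some of the other gaps with 3 or more members have a developmental gene at one end, and were picked for description after their values were seen. The gap between CG8635 and ptc, which encodes the Hedgehog receptor Patched, held 4 members with signals from 128.3 to 473.6. The gap between slp1 and slp2, paired forkhead genes of the segmentation hierarchy, held 3, at 298.9, 210.3 and 135.6. Among the gaps with 3 members were those between dnc and Myc (141.3 to 189.8), between hry, the pair-rule gene hairy, and SrpRbeta (125.5 to 131.7), and between mid, a T-box gene, and CG14020 (125.2 to 143.4). The gap between Ids and sty, which encodes the receptor tyrosine kinase antagonist Sprouty, held 4, at 154.9 to 242.9. Gaps with as many members also lay between genes of other kinds, such as CG8517 and Or56a, an odorant receptor gene, with 4 members at 122.6 to 209.4, and CASK and Gr93a, a gustatory receptor gene, with 3 at 139.5 to 179.0.

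By distance, 36 members (10.9%, 7.77 to 14.8%) lay less than 1 kb from the nearest protein-coding TSS, where 5.59% of the sequence that meets the rule lies. Between 2 and 5 kb lay 86 members (26.1% against 20.2% of bases). At 20 kb or more lay 25 members (7.58%, 4.96 to 11.0%), against 27.8% of bases. Much of that last difference disappeared when bases were counted only in 100 kb bins that hold a pooled peak of any strength: there, 10.5% of bases were 20 kb or more from a TSS and 7.72% were under 1 kb. In the same bins, 26.4% of bases lay between 2 and 5 kb, so no excess of members remained at that distance. Such bins hold 63.7% of the sequence that meets the rule. On the far side of the limit, the nearest promoter summits outside transcripts were 489 bp upstream of Sarm (417.1) and 476 bp upstream of CG42571 (203.5) and of Dys (399.8). On the near side, members lay 517 bp upstream of CG17778 (125.5), 551 bp upstream of Hsc70-3 (204.1) and 563 bp upstream of Or49a (125.2).

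**Figure D3:**
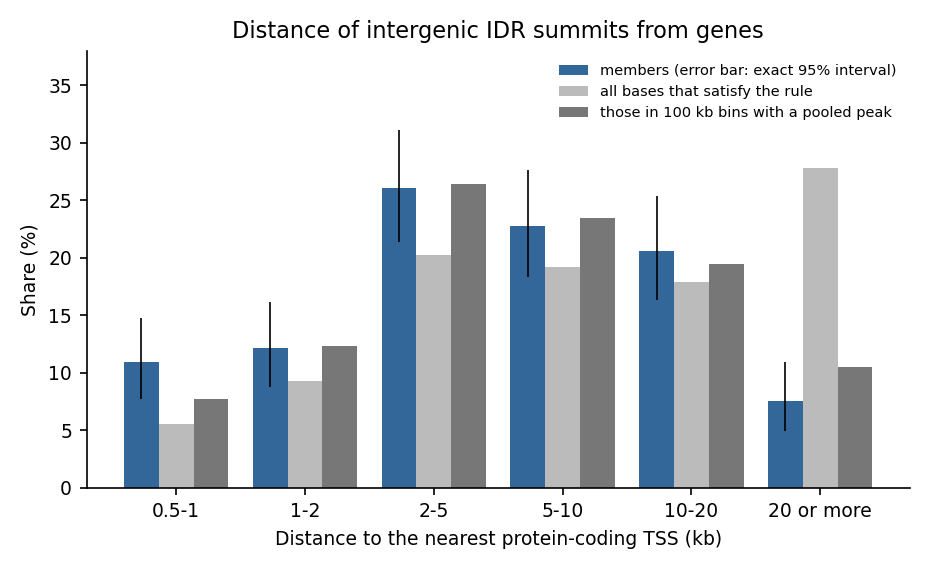
Share of the 330 intergenic IDR summits (blue, with exact 95% binomial intervals) in bins of distance to the nearest protein-coding TSS, in kb, beside the share of all bases that satisfy the rule (light grey) and of those in 100 kb bins with a pooled peak (dark grey). Members exceed the bases in the bin nearest to genes, 10.9% against 5.59% and 7.72%, and fall short of all bases at 20 kb or more, 7.58% against 27.8%.

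Members lay upstream of their nearest protein-coding TSS in 207 cases (62.7%, 57.3 to 68%), against 59.0% of bases. Gaps between divergent genes, which both start there, held 114 members (34.5%, 29.4 to 40%) against 24.6% of bases, and tandem gaps held 145 (43.9%, 38.5 to 49.5%) against 52.3%. Convergent gaps held 71 (21.5%) against 23.1% of bases. The X chromosome held 17 members (5.15%, 3.03 to 8.12%) against 14.6% of the bases. It held 9.82% of promoter and 10.5% of intron summits. 3L held 100 members (30.3%, 25.4 to 35.6%) against 24.8% of bases. The sex makeup of the embryos is not given in the labels, and its part in the X share was not tested.

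The start of a noncoding gene lay within 500 bp of 31 members (9.39%, 6.47 to 13.1%), against 2.16% of the sequence that meets the rule and 2.92% of that in bins with a pooled peak. The rule limits only distance from protein-coding starts, so these are start sites it leaves in the class. They comprised 19 lncRNA, 10 tRNA, 1 snRNA and 1 snoRNA gene. The summit was upstream of the start in 27 of the 31, which the rule favours because it removes summits inside transcripts.

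tRNA genes stood within 500 bp of 3.03% of members (1.46 to 5.50%), against 0.22% of bases and 0.341% in bins with a pooled peak. The strongest was 325 bp upstream of tRNA:Val-CAC-1-1, at 507.3 (209.4 in replicate 2 and 316.1 in replicate 3), and 2 members beside tRNA:Val-CAC-1-1 and tRNA:Pro-TGG-1-1 lay close together on 3R near CG14324. The member 177 bp upstream of tRNA:Gly-TCC-2-2 reached 326.6 and the one 32 bp upstream of tRNA:Leu-CAG-1-3 reached 255.9. The other tRNA neighbours were weaker, between 122.6 and 209.4. Of these, 3, beside tRNA:Ile-AAT-1-9, tRNA:Glu-CTC-2-2 and tRNA:Glu-CTC-2-1, shared 1 gap between CG8517 and Or56a with the snoRNA neighbour. tRNA genes are multicopy, and how reads with several alignments were treated is not given in the sources used here. GGTTCGA, part of the B box inside tRNA genes, was found in 0.909% of member windows and 0.615% of all intergenic windows.

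Among lncRNA neighbours, the strongest were lncRNA:CR44366 (3129.5), lncRNA:CR31044 (662.5) and lncRNA:CR44339 (548.3, with the summit 189 bp upstream). lncRNA:CR45668, 216 bp from the summit, lay beside Act5C, a cytoplasmic actin gene, and its member reached 248.1. Of the 19 lncRNA neighbours, 18 had the summit upstream of their start.

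The sequence under the summits was described by the share of such windows, the summit with 50 bp on either side, with a match on either strand, beside the same share in 366969 windows of the same length tiled over all sequence that meets the rule. Among the 144 6-letter words found in at least 10% of member windows, TAATTA had the highest ratio. It was present in 63 members (19.1%, 15 to 23.8%) and in 7.46% of all windows, a ratio of 2.56. CTTATC followed, with 34 members (10.3%, 7.24 to 14.1%) against 4.04% and a ratio of 2.55. AATTAG was found in 56 members (17.0%) against 7.25%, a ratio of 2.34, and TGATAA in 42 (12.7%) against 6.34%, a ratio of 2.01. TAATTA and AATTAG overlap in part, as do CTTATC and TGATAA on opposite strands. One or both of the first pair were found in 94 members (28.5% against 12.3% of all windows) and of the second pair in 58 (17.6% against 9.02%). CTTATC and AATTAG were picked from words ranked on these same member windows. Their excess over other windows, farther from the summit or under weaker peaks, is therefore no independent check.

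Windows 300 bp to the left and right of the same summits held TAATTA in 9.39% and 8.79% of cases, and CTTATC in 4.85% and 5.76%. TGATAA was found there in 9.09% and 6.97%, against 12.7% of member windows (9.33 to 16.8%). In 50 bp bins, TAATTA was found in 12.1% of members in the bin that begins at the summit and in 8.48% in the bin just before it. It was found in 2.42 to 7.27% of members in the bins that lie 100 bp or more away on either side. CTTATC was found in 6.97% in the bin that begins at the summit and in 3.64% in the bin just before it, where bins farther away reached 5.15%, so its matches were less clearly centred. Longer words in at least 10 members were ranked by ratio, and the word named first is the highest of those of 9 letters. AATTAATTA was present in 17 members (5.15%, 3.03 to 8.12%) and in 0.678% of all windows, a ratio of 7.6. Words of other composition also had ratios above that of TAATTA, such as ACTCGCT (12 members, 4.62) and GTCAATA (17 members, 4.43). The median GC content was 39.6% in member windows and 40.6% in all intergenic windows.

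**Figure D4:**
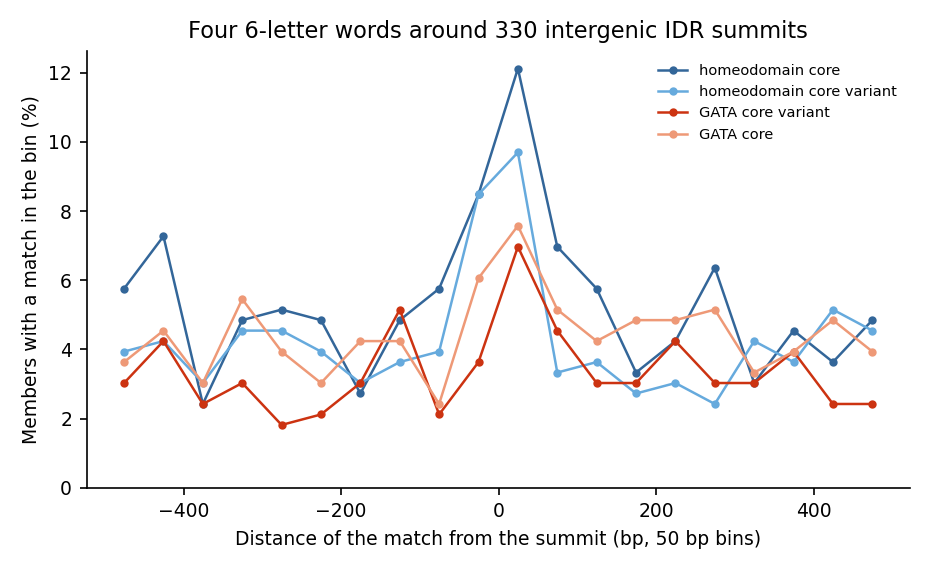
Share of the 330 members with a match to each of 4 words (vertical, %) in 50 bp bins by distance from the summit (horizontal, bp). The homeodomain core reaches 12.1% and the GATA core 7.58% in the bin that begins at the summit. Bins 100 bp or more away reach 7.27% for the homeodomain core and 5.5% for the GATA core.

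These words were also found at summits of the other classes. TAATTA was found in 16.6% of promoter and 18% of intron windows of the IDR set, CTTATC in 6.82% and 7.85%, and TGATAA in 8.46% and 10.4%. AATTAG was less frequent in those classes, at 10.8% and 11.6%, against 17.0% of members (13.1 to 21.5%). Some words differed more between classes. TATCGAT, the element bound by DREF at promoters of growth genes, was in 2 members (0.606%, 0.0735 to 2.17%), in 5.32% of promoter windows and in 1.08% of all intergenic windows. CGATA, a word bound by the insulator protein BEAF-32, was in 10% of members and 20.2% of promoter windows. TGTTTAC, a forkhead core, was in 4.24% of members, 8.70% of intron windows and 1.87% of all intergenic windows. GAGAG, bound by GAGA factor, was in 14.5% of members (10.9 to 18.8%) against 11.0% of all windows. CAGGTAG, the site of the early activator Zelda, was in 3 members (0.909%, 0.188 to 2.63%), against 0.429% of all intergenic windows. It was in 0% of promoter and 0.84% of intron windows. None of these differences between classes was tested.

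Word content varied among the strongest members. At least 1 of the 4 words was found in 135 members (40.9%, against 20.1% of all intergenic windows) and in 11 of the 25 strongest. Off 2R, the 7 strongest members, among them those of zfh2, eEF1gamma and rpr printed above, held none of them. The 4 strongest of all members, near CG42808, CG42807, Tsp47F and Fa2h and all on 2R, held TAATTA. Intergenic summits of the pooled list, which includes weaker peaks outside the IDR set, showed TAATTA in 17.6% (10.4 to 27%) at ranks 1 to 500, in 19.7% between ranks 500 and 1874 and in 15% between ranks 1874 and 5000. Beyond rank 5000 the share was 9.05, 9.72 and 8.90% in successive bins, closer to the 7.46% of all intergenic windows. CTTATC was in 11.0% and 10% of the first 2 bins and in 4.83 to 5.73% of the others. Those first 2 bins are the member windows from which CTTATC was picked, so its fall beyond them is no independent check.

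**Figure D5:**
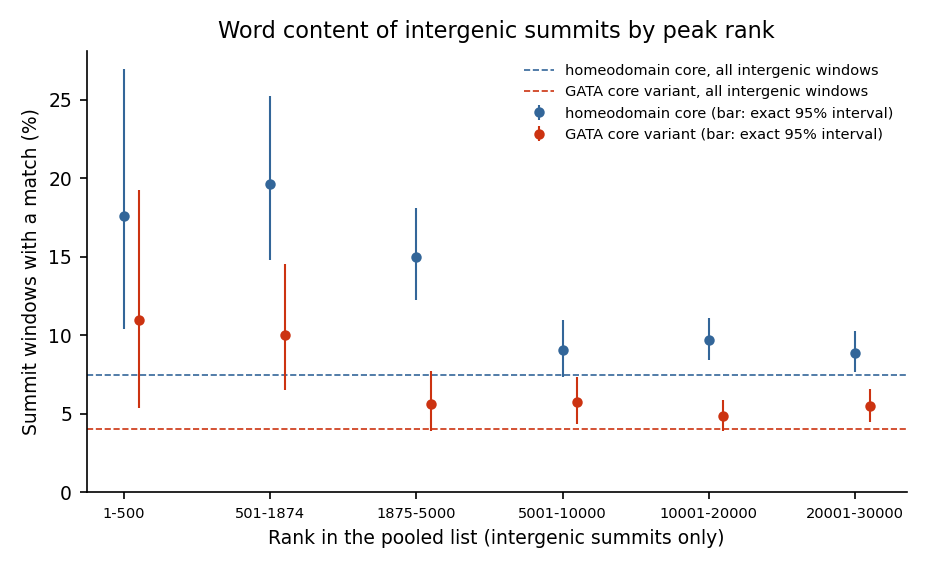
Share of intergenic summits of the pooled list with the homeodomain core (blue) or the GATA core variant (red) within 50 bp of the summit, by rank of the peak, with exact 95% binomial intervals and, as dashed lines, the share in all intergenic windows. The first 2 bins are the 330 IDR members, at 17.6% and 19.7% for the homeodomain core, and the 3 bins beyond rank 5000 lie between 8.90% and 9.72%.

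Genes of 16 lists were the nearest protein-coding gene of 60 members. The share of bases nearest to any listed gene was not computed, so that total has no background beside it. Some genes, such as srp and vvl, are on several lists, so the base shares of the lists cannot be added. Each list count is given beside the share of rule-satisfying bases whose nearest TSS belongs to the list, since developmental genes lie in long gaps. Members were nearest to gap and pair-rule genes other than homeobox genes in 8 cases (2.42%, 1.05 to 4.72%), against 0.71% of bases. They included croc, a forkhead gene of head development, with 361.0 at 11992 bp downstream, slp2 with 298.9, slp1 with 210.3 and D, the Sox gene Dichaete, with 172.1. The ratio of the shares was 3.41, and it was 2.06 without replicate 3, 2.18 against bases in bins with a pooled peak and 2.2 with either flanking gene. Notch pathway and Enhancer of split genes were nearest to 6 members (1.82%, 0.67 to 3.92%), against 0.185% of bases. These included fng, which encodes a glycosyltransferase that modifies Notch, at 241.8, and E(spl)malpha-BFM, at 222.2 and 150.1. That ratio of 9.84 rests on 6 members and moved to 15.1 without replicate 2 and to 6.27 against bases in bins with a pooled peak.

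Segment polarity, Wnt and Hedgehog genes were nearest to 6 members (1.82% against 0.635% of bases), with Wnt4 at 174.0, ptc at 146.7 and mid at 143.4 and 133.9. The ratio fell from 2.87 to 1.83 against bases in bins with a pooled peak. Gut and endoderm genes were nearest to 4 (1.21% against 0.262%). Among these were srp, a GATA factor gene, at 254.5 and 2349 bp upstream, and fkh, the forkhead gene of gut and salivary gland, at 192.5. The other entries of that list with a member were drm at 160.2 and Dr at 129.1, whose tissues of expression were not examined here. Dorsal-ventral and BMP genes also had 4 (against 0.386%), led by vn, which encodes an EGF receptor ligand, at 223.7. Tracheal, midline and epithelial genes had 6 (against 0.626%), led by rib. Their ratio of 2.9 was 1.87 without replicate 3 and 1.85 against bases in bins with a pooled peak. The mesoderm and muscle list had 2 (0.606% against 0.28%), nearest its entries zfh2 and zfh1, whose tissues of expression were not examined here.

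Homeobox genes had 13 members (3.94%, 2.11 to 6.64%) against 2.75% of bases, so that their interval includes the base share. The highest were caup and mirr, Iroquois genes, at 288.7 and 224.0, then vvl at 197.3 and B-H1 at 186.9. Cell adhesion and guidance genes had 8 (2.42% against 2.71%). Their ratio of 0.895 ran from 0.485 with either flanking gene, and 0.572 without replicate 2, to 1.18 in bins with a pooled peak. Chemoreceptor and odorant-binding protein genes, which were listed together, had 6 (1.82% against 2.1%), among them members nearest Obp56g and Obp56i. Ribosomal protein genes had 1 (0.303% against 0.934%), as had cuticle protein genes (against 0.541%), proneural and neuroblast genes (against 0.471%), and immune peptide and Toll genes (against 0.0714%), the last being Tl at 266.6. GATA factor genes had 1, srp (against 0.0556%). Genes of ecdysone response and nuclear receptors had 0, which allows a share of up to 1.11% (exact 95% upper bound), with 0.162% of bases. With so few members per list, most intervals are wide, and the nearest gene need not be the one a region acts on.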

How the data were processed

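The 2 ChIP-seq libraries are biological replicates 2 and 3 of 1 group, and their peak lists were used as deposited. The authors' accompanying file lists record calls per replicate and on pooled reads against the same control (dm6), with the IDR list built from them. Not given in the sources used here: aligner, peak caller, IDR threshold. The deposited signal is a caller value of unstated scale and set the ranks, whereas the authors' −log10 q value did not. The replicate and pooled lists hold 30000 peaks each (the IDR list holds 1874), which is a length and not a depth. Depth is unknown, and exact 95% intervals cover counting error over peaks only.

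Summits were compared with the Ensembl 115 annotation (FlyBase 6.54), without transposable elements. Sequence and soft-masking came from RefSeq Release 6. Comparisons between classes used two-sided Fisher's exact tests with Benjamini-Hochberg adjustment over 12 tests (SciPy 1.17.1, pandas 2.3.3, Python 3.11.15), tested on simulated data. Members, gene lists, words and tests were chosen with earlier results of these data known. Named members are the 25 strongest, those in gaps or runs with several, those at the 500 bp limit, up to 4 per gene list, the 5 with the largest rank difference and those beside noncoding starts; the last group and members nearest apoptosis genes were named after their values were seen. Of the list entries, 6 had no match. Alternatives changed the window, the class rule, the background and the replicates used.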

Additional observations from a re-analysis of the deposited data

How the results depend on the processing

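Of 86 test results recomputed under alternatives, 57 kept their direction and side of the 0.05 threshold, 5 changed side, and in 24 the odds ratio moved across 1 without passing the threshold in either fit, so no direction is held by those properties. With a 250 bp promoter window these were 1.014 for the strongest of both replicates, 1.074 for signal and 1.078 for masking against promoters, and 1.011 for masking against introns, and with a 1000 bp window 1.014 for masking against promoters. Among IDR peaks above the median signal they were 1.085 for the strongest of both and 0.7336 for width against promoters. Matching within 50 bp gave 0.9598 against promoters and 0.9968 against introns, with 0.9563 for the strongest of both against introns, and within 250 bp 0.9252 against introns. Masking over 150 bp on either side gave 1.487 against promoters. Leaving out a replicate, matching against introns ran from 0.9246 to 1.841, the strongest of both from 0.8445 to 1.025 against promoters and 0.9753 to 0.991 against introns, signal against promoters from 0.7458 to 1.113, width from 0.4354 to 0.7965 against promoters and 0.4971 to 0.9933 against introns, neighbours within 5 kb against introns from 0.8816 to 1.029, and masking from 0.7255 to 1.018 against promoters and 0.9186 to 1.043 against introns. The excess of neighbours within 5 kb over promoters was lost in 4: with a 1000 bp promoter window (odds ratio 1.405), among IDR peaks above the median signal (1.354), within 1 kb (1.028) and without replicate 2 (1.366, against 1.602 without replicate 3). Counting any masked base, intergenic windows were masked less often than intron windows (0.6397, Fisher's exact test, adjusted p = 0.0158). The intergenic share was 19.8% with a 250 bp and 15.69% with a 1000 bp promoter window, and 20.76% when only protein-coding transcripts excluded summits. The TAATTA ratio was 3.81 when the background, but not the members, was limited to windows without a masked base. The AATTAG ratio was 1.68 with 100 bp on either side of the summit and 1.73 to 1.96 leaving out a replicate. Windows 300 bp to either side were a background chosen after seeing the data. Against them, the ratios were 2.1 for TAATTA, 2.43 for AATTAG, 1.94 for CTTATC and 1.58 for TGATAA. The base-share ratio of chemoreceptor and odorant-binding protein genes turned from 0.868 to 1.12 with either flanking gene. It ran from 0.887 to 1.26 leaving out a replicate. The ratio of adhesion genes turned to 1.18 against bases in bins with a pooled peak. The cause of these changes was not tested. No paired analysis was possible because there is only 1 group. Read depth is unknown, so it cannot be said which weaker members it limits.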
